A study of Homo sapiens with 6 samples.

Results

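Serine, glycine and folate one-carbon metabolism was examined in SW480, a human cell line from a colon adenocarcinoma, through 10 enzymes: PHGDH, PSPH, SHMT1, SHMT2, MTHFD1, MTHFD1L, MTHFD2, ALDH1L2, GCSH and MAT2A. They were chosen by name and pathway role, with earlier results of these data known. They are the rows of the deposited expression table whose symbol equals one of these names, and all 10 were found among its 20289 genes. All 10 also passed the filter on low counts that left 12920 genes for testing. The study made mRNA libraries from 3 control cultures, LV-NC, labelled WT with the treatment None / LV-NC, and from 3 cultures labelled MUCP1-Flag overexpression, here MUCP1-FLAG. Both kinds of culture were SW480 cells grown alike, in serum-supplemented L-15. The labels do not say whether either culture was a clone or a pool, nor how long the construct had been expressed. No row of the table carries the symbol MUCP1, so the overexpression was not checked here. The series asks which genes, metabolic ones among them, change when MUCP1 is raised.

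Cells make serine from the glycolytic intermediate 3-phosphoglycerate, and serine then gives its side-chain carbon to tetrahydrofolate, leaving glycine. This happens in parallel in the cytosol and in mitochondria, with a separate set of enzymes in each compartment, and formate made in mitochondria passes to the cytosol. The folate-bound carbon feeds purines, thymidylate and the methionine cycle, which makes S-adenosylmethionine, the methyl donor of the cell. Mitochondrial members of the pathway are often raised in tumours and are known targets of the transcription factors ATF4 and MYC.

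Library totals ran from 17333329 to 23282604 counts. No pair within a group looked like 1 library deposited again, as chi-square per degree of freedom was 2.58 to 8.22. The labels call them biological replicates and give no day, passage or batch, so p-values measure the spread between these 3 and 3 libraries. Of 12 colon epithelial markers 7 were tested. The 12 summed to 6393 to 7070 CPM (counts scaled to a common library size with TMM factors) in LV-NC and 6875 to 7054 CPM in MUCP1-FLAG. Most of this sum was KRT8 and KRT18, with means of 3615 and 2281 CPM in LV-NC and 3687 and 2487 CPM in MUCP1-FLAG. KRT20, CEACAM5, CEACAM6 and LGR5 had 0 to 3 counts in each library and CDX1 had none. CDH1, the epithelial cadherin, fell from 31.2 ± 0.648 to 14.9 ± 0.241 CPM, and EPCAM from 254 ± 8.59 to 202 ± 5.04 CPM (SD, n = 3 per group, edgeR adjusted p 3.26e-09 and 3.51e-05). VIL1 was also lower, at −0.40 ± 0.10 on the log2 scale, and KRT19 was higher, at 0.17 ± 0.05 (edgeR adjusted p 0.00731 and 0.0322). Both calls were lost in limma on FPKM, and that of KRT19 also when any library but LV-NC replicate 1 was left out. KRT8, KRT18 and CDX2 were not called, at 0.03 ± 0.05, 0.12 ± 0.05 and −0.03 ± 0.09 (edgeR adjusted p 0.735, 0.0644 and 0.878). The 13 markers of fibroblasts, blood and endothelium summed to 16.3 to 17.5 CPM in LV-NC against 11.1 to 14.2 CPM in MUCP1-FLAG. Most of the sum for these other cells was CD68, which epithelial cells can express too. CD68 fell from 12.6 ± 0.447 to 8.21 ± 1.07 CPM (SD, n = 3 per group, edgeR adjusted p 0.000554). It was also called in limma on FPKM and when any 1 library was left out. PTPRC, PECAM1 and CDH5 had no count in any library. The part of these markers in the results below was not tested.

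Of the 10 one-carbon enzymes 4 rose and 2 fell in MUCP1-FLAG cells, by small amounts. SHMT1, MTHFD1, ALDH1L2 and GCSH were the higher ones, by 1.13-fold to 1.54-fold, and MTHFD1L and MAT2A the lower ones, by 1.13-fold and 1.11-fold. PHGDH, PSPH, SHMT2 and MTHFD2 did not pass the test. A gene was called at an adjusted p under 0.05 in edgeR's quasi-likelihood test, with Benjamini-Hochberg adjustment over all tested genes. Of all 12920 tested genes 8.35% were called higher, 7.71% lower and 16.1% in either direction. The median log2 fold change of the 10 enzymes was 0.07 and that of all tested genes was −0.0042, and the median absolute log2 fold changes were 0.16 and 0.11. In 7 of the 10 the CPM values of the groups did not overlap, against 33.1% of all tested genes. A change in bulk RNA cannot tell fewer expressing cells apart from less RNA per cell.

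These counts depended on single libraries and on the unit. Without MUCP1-FLAG replicate 2 or without MUCP1-FLAG replicate 3 the number of higher enzymes was 2. The number of lower enzymes in edgeR was 0 when LV-NC replicate 2, MUCP1-FLAG replicate 1 or MUCP1-FLAG replicate 3 was left out, and 1 when LV-NC replicate 1 was. In each of these fits 2 enzymes were lower at an unadjusted p under 0.05. On the deposited FPKM values, with limma, 2 were higher and 1 lower, and DESeq2 on the counts called 3 higher and 1 lower. In the authors' deposited table, by its own test, 4 of the 10 had an adjusted p under 0.05, as did 7.50% of its 20289 genes. These were SHMT1, MTHFD1, GCSH and MAT2A, all of them also called by edgeR.

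**Figure D1:**
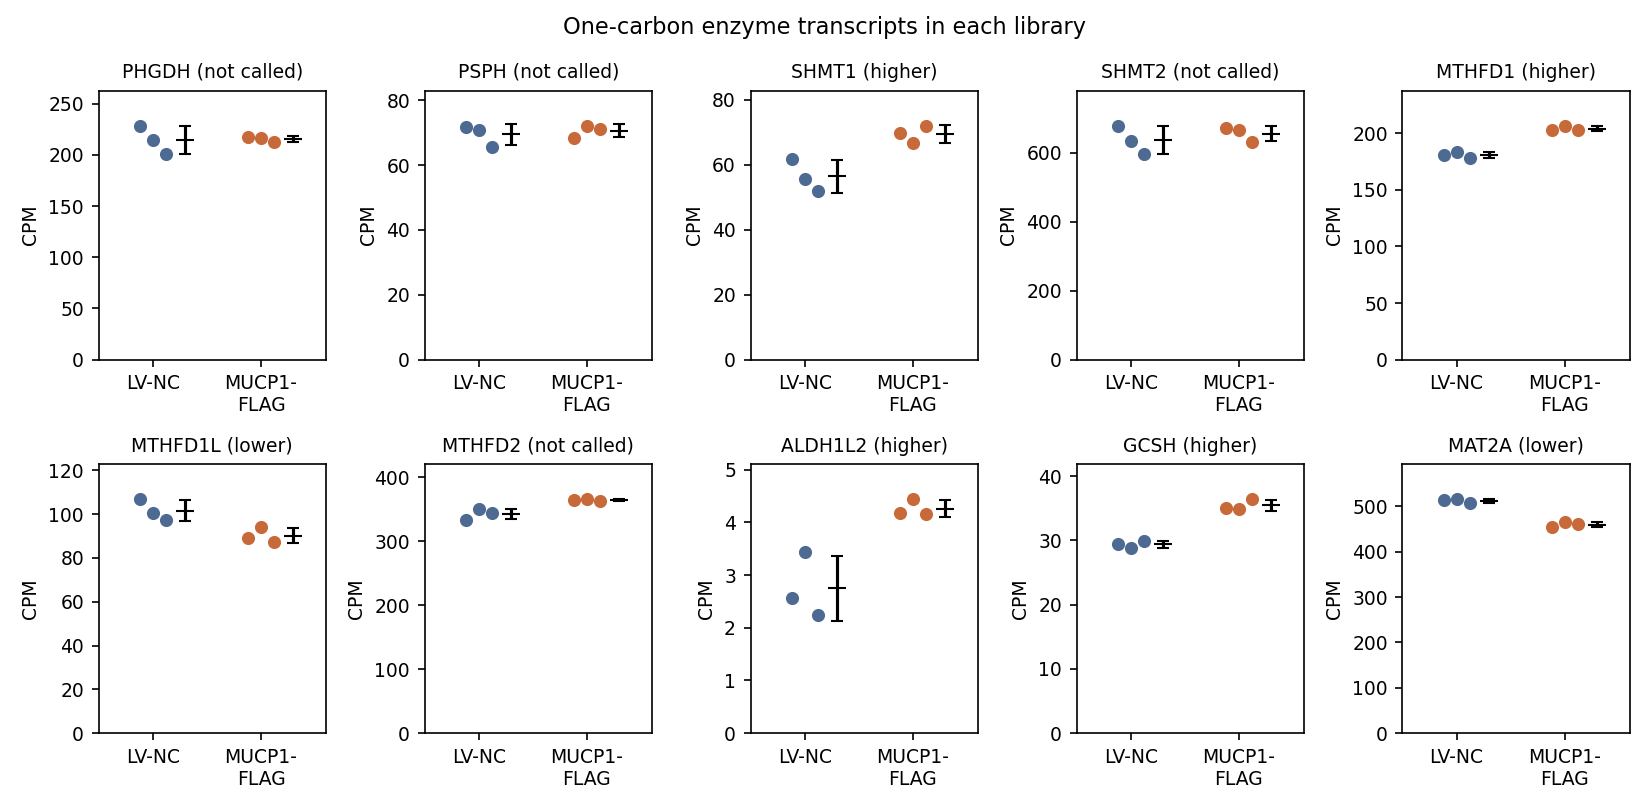
Each panel plots the level of 1 enzyme transcript in CPM on an axis from 0, with 1 point per library and a black bar for mean and SD (n = 3 per group). The 4 enzymes called higher and the 2 called lower show no overlap between groups, and PHGDH, PSPH and SHMT2 overlap.

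Per length, the enzymes ran from the abundant SHMT2 to the scarce ALDH1L2. SHMT2 led in LV-NC with 350 ± 23.3 FPKM (deposited values, SD, n = 3), followed by MTHFD2 with 194 ± 3.72 and MAT2A with 189 ± 1.34, whose ranges overlapped. PHGDH had 118 ± 6.99 FPKM, MTHFD1 58.2 ± 0.612 and PSPH 55.4 ± 2.13, with no overlap between neighbours in this order. MTHFD1L with 31.4 ± 1.25 and SHMT1 with 27.1 ± 3.63 FPKM overlapped in LV-NC. In MUCP1-FLAG this pair lay apart in the opposite order, with SHMT1 at 30.6 to 35.3 FPKM and MTHFD1L at 26.7 to 28.8. GCSH followed with 19.9 ± 0.335 FPKM, and ALDH1L2 was the lowest with 0.370 ± 0.0794 FPKM. In MUCP1-FLAG MTHFD2 and MAT2A no longer overlapped, at 201 to 203 against 167 to 170 FPKM.

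**Figure D2:**
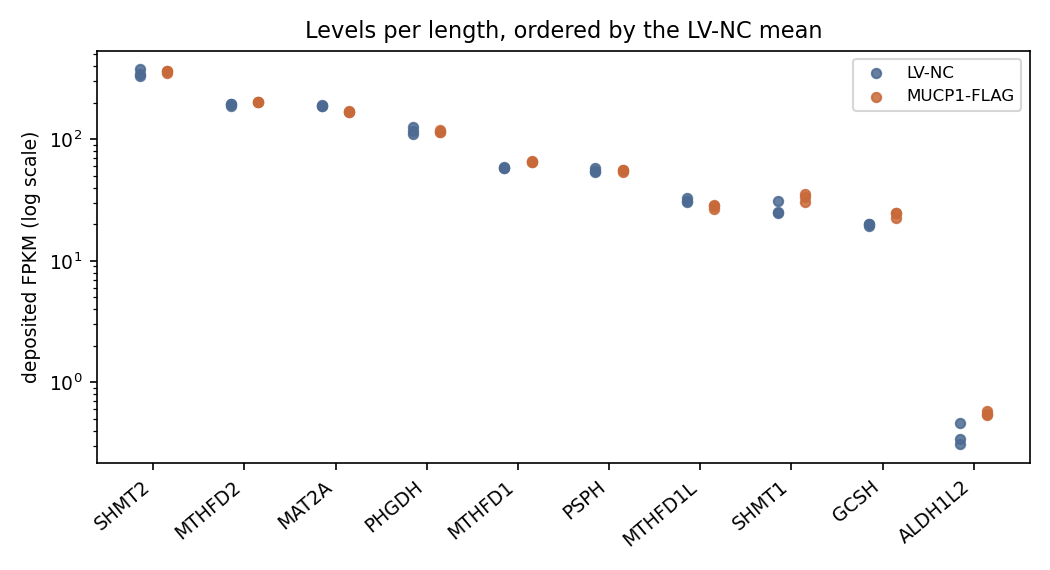
Deposited FPKM of each enzyme in each library, on a log scale, with 3 LV-NC and 3 MUCP1-FLAG points per enzyme in the order of the LV-NC mean. SHMT2 stands highest at 330 to 376 FPKM in LV-NC and ALDH1L2 lowest at 0.31 to 0.46, and MTHFD1L and SHMT1 exchange places between the groups.

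The enzymes that build serine showed no called change. PHGDH, phosphoglycerate dehydrogenase, opens the pathway. It had 229, 214 and 200 CPM in the LV-NC libraries and 217, 217 and 213 CPM in MUCP1-FLAG. The MUCP1-FLAG values lay inside the LV-NC range. The log2 fold change was 0.01 ± 0.05 (standard error), with a 95% interval of −0.10 to 0.11 (edgeR adjusted p 0.940). PSPH, the phosphatase of the last step, had 71.9, 70.9 and 65.6 CPM in LV-NC against 68.5, 72.2 and 71.3 CPM in MUCP1-FLAG, again overlapping. Its log2 fold change was 0.03 ± 0.06, with a 95% interval of −0.09 to 0.14 (edgeR adjusted p 0.814). The sign of both values turned in some of the settings tried, and neither was called in any of 13. PSAT1, the transaminase of the middle step and no member of the 10, stood at 372 ± 6.88 CPM in LV-NC against 389 ± 17.4 CPM in MUCP1-FLAG (edgeR adjusted p 0.350, n = 3 per group).

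Serine hydroxymethyltransferase, which moves the carbon of serine onto folate, exists as the cytosolic SHMT1 and the mitochondrial SHMT2. SHMT1 had 61.9, 55.7 and 51.8 CPM in LV-NC against 69.8, 66.6 and 72.1 CPM in MUCP1-FLAG. All 3 MUCP1-FLAG libraries were above all LV-NC libraries. The rise was 1.23-fold, or 0.30 ± 0.07 on the log2 scale (adjusted p 0.00299 in edgeR). It was called in all 6 fits that left out 1 library, but not by limma after FPKM was transformed with a pseudocount of 1 or 0.1 (limma adjusted p 0.0908 and 0.0875). The length implied by count and FPKM varied by 6.07% (coefficient of variation) between libraries for SHMT1, against 0.805% to 2.99% for the other 9 enzymes. On FPKM the groups overlapped, since LV-NC replicate 1 had 31.3 and MUCP1-FLAG replicate 1 had 30.6. SHMT2 had 679, 634 and 597 CPM in LV-NC against 672, 665 and 631 CPM in MUCP1-FLAG, with the groups overlapping. Its log2 fold change was 0.04 ± 0.05, with a 95% interval of −0.06 to 0.15 (edgeR adjusted p 0.609).

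MTHFD1 is the cytosolic enzyme that joins 3 activities on folate, making 10-formyl-tetrahydrofolate from formate and interconverting it with methylene-tetrahydrofolate. It had 180, 183 and 178 CPM in LV-NC against 202, 207 and 203 CPM in MUCP1-FLAG. The values within each group were close together and the groups lay apart. The rise was 1.13-fold, or 0.18 ± 0.05 on the log2 scale (adjusted p 0.00874 in edgeR). It was called in 12 of the 13 other settings, the exception being the fit without MUCP1-FLAG replicate 2 (edgeR adjusted p 0.0521).

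In mitochondria the related steps are shared between MTHFD2, which oxidises methylene-tetrahydrofolate, MTHFD1L, which releases formate, and ALDH1L2, which oxidises formyl-tetrahydrofolate to carbon dioxide. MTHFD1L had 107, 100 and 97.5 CPM in LV-NC against 88.9, 94.2 and 87.5 CPM in MUCP1-FLAG. The highest MUCP1-FLAG library lay just under the lowest LV-NC library. The log2 fold change was −0.17 ± 0.06 (adjusted p 0.0385 in edgeR). The call was lost in 8 of the 13 other settings, among them DESeq2 (adjusted p 0.0507), limma on both FPKM scales (adjusted p 0.107 and 0.106), and edgeR without LV-NC replicate 1 (0.0974), LV-NC replicate 2 (0.103), MUCP1-FLAG replicate 1 (0.111) or MUCP1-FLAG replicate 3 (adjusted p 0.177). Its direction was lower in each of the 13 settings.

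The promoters of MTHFD1 and MTHFD1L are shown because these enzymes handle formate on the 2 sides of the mitochondrial membrane and moved in opposite directions. They were also the only members with a match to a searched motif among the 7 whose promoters could be searched. RefSeq sequences (GRCh38.p14) of 250 bases before to 50 after a start were found for 7 of the 10 enzymes, in 10 windows. PSPH, SHMT2 and ALDH1L2 had no window and were not searched. The motifs were CACGTG, the E-box, which reads alike on both strands, and TGATGNAA, a C/EBP-ATF element, sought on both strands. They do not overlap each other in these windows. The MTHFD1 window lies at chr14:64388103-64388402 on the + strand, with an E-box whose first base is at −15 from the start. Of 4 MTHFD1L windows, 3 overlapping ones hold 1 E-box and 1 C/EBP-ATF element. The first listed, chr6:150866236-150866535 on the + strand, has them at −154 and −129. Capitals mark the matches.

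MTHFD1: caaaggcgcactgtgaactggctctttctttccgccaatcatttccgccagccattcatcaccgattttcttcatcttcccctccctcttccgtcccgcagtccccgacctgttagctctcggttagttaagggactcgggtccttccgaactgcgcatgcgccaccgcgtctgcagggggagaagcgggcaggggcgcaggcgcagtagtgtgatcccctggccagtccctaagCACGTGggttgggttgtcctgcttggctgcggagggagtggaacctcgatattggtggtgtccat

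MTHFD1L: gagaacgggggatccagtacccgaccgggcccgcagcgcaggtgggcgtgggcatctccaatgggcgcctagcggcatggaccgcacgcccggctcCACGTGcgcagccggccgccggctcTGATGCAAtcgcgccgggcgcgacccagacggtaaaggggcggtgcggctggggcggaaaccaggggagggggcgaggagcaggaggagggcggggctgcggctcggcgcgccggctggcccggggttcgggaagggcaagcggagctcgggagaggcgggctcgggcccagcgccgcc

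Among all 35116 promoter windows given there, 7.26% hold the E-box and 3.62% the C/EBP-ATF element. The windows of PHGDH, SHMT1, MTHFD2, GCSH and MAT2A hold neither set of letters. A match describes the sequence and not a bound site.

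MTHFD2 had 334, 350 and 344 CPM in LV-NC against 364, 366 and 363 CPM in MUCP1-FLAG. The groups did not overlap, yet the gene was not called. Its log2 fold change was 0.09 ± 0.04, with a 95% interval of 0.00 to 0.18 (edgeR adjusted p 0.170), and the adjusted p lay between 0.115 and 0.371 in the 13 other settings. Its paralogue MTHFD2L, another mitochondrial dehydrogenase of methylene-tetrahydrofolate, was scarce, with 2.28 ± 0.417 CPM in LV-NC against 3.09 ± 0.137 CPM in MUCP1-FLAG (0.44 ± 0.20 on the log2 scale, adjusted p 0.154 in edgeR, n = 3 per group).

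ALDH1L2 rose most in fold among the enzymes, from the lowest level. It had 2.56, 3.43 and 2.25 CPM in LV-NC, from 49, 74 and 43 counts, against 4.17, 4.44 and 4.15 CPM in MUCP1-FLAG, from 72, 102 and 81 counts. Each MUCP1-FLAG library was above each LV-NC library. The log2 fold change was 0.63 ± 0.19 (adjusted p 0.0258 in edgeR). This call was held in 5 of 13 other settings and lost in DESeq2 (adjusted p 0.0861), in limma on both FPKM scales (adjusted p 0.186 and 0.190), and in edgeR without any 1 library other than LV-NC replicate 2 (adjusted p 0.0567 to 0.0917). On log2(FPKM + 1) its log2 difference was 0.19, a scale that understates the change of a low transcript.

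**Figure D3:**
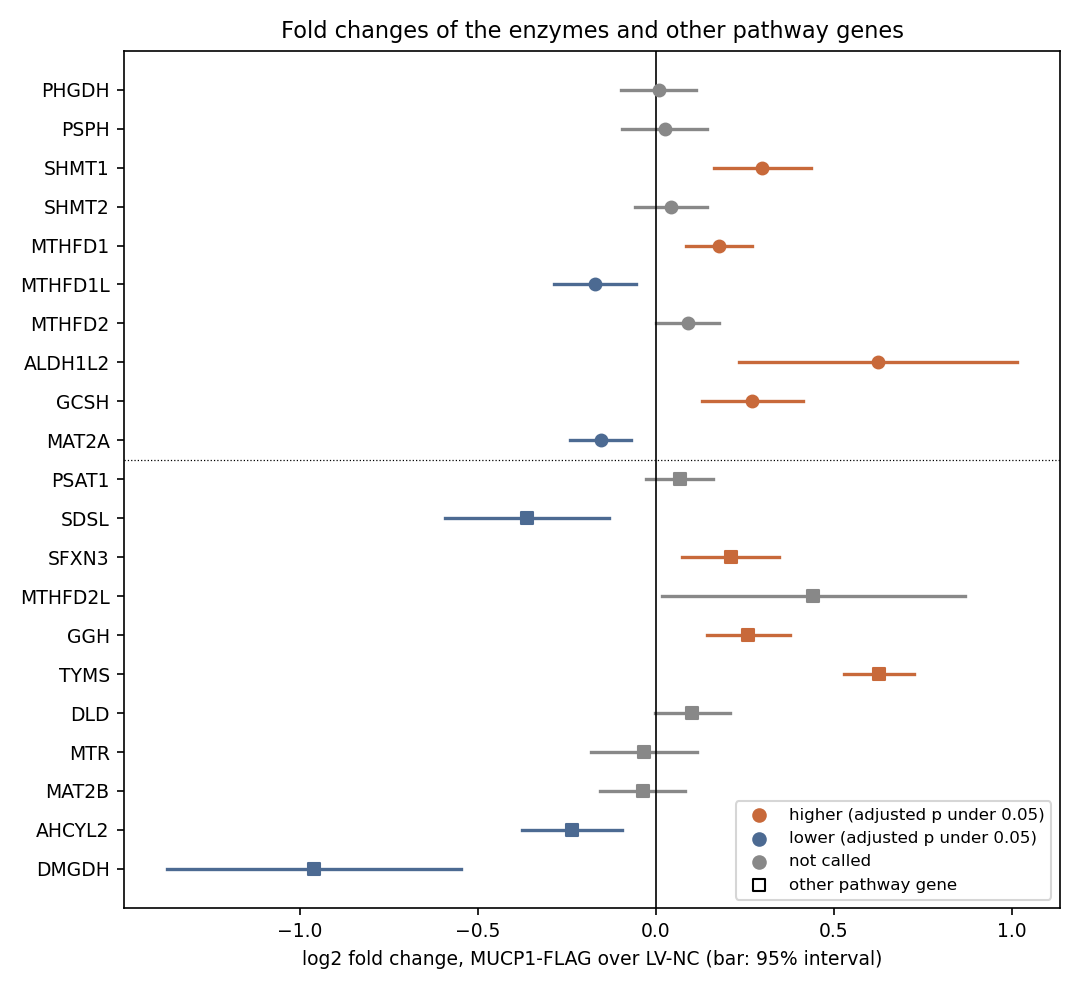
Log2 fold changes of MUCP1-FLAG over LV-NC with 95% intervals from edgeR, for the 10 enzymes (circles) and for most other pathway genes named in the text (squares). Among the enzymes ALDH1L2 lies farthest right at 0.63 with the widest interval, 0.23 to 1.02, and MTHFD1L and MAT2A lie left of 0.

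The levels of SHMT2, MTHFD1L and MTHFD2 were set against those of cytosolic counterparts in 3 ratios. Each ratio had lower values in all MUCP1-FLAG libraries than in any LV-NC library. SHMT2 and MTHFD2 were not themselves lower, at log2 fold changes of 0.04 and 0.09, while SHMT1 and MTHFD1 rose by 0.30 and 0.18. Per length, SHMT2 was 11.99, 13.78 and 13.15 times SHMT1 in the LV-NC libraries and 11.91, 10.95 and 9.915 times in MUCP1-FLAG. The groups nearly met on FPKM, and the difference was −0.25 on the log2 scale, against −0.26 as a ratio of counts. For SHMT1 the length implied by count and FPKM varied by 6.07% between libraries. MTHFD1L was 0.563, 0.531 and 0.524 times MTHFD1 in LV-NC and 0.433, 0.441 and 0.406 times in MUCP1-FLAG. This was the largest difference of the 3, −0.34 on the log2 scale, with MTHFD1L lower and MTHFD1 higher. MTHFD2 was 3.26, 3.34 and 3.37 times MTHFD1 in LV-NC and 3.09, 3.10 and 3.07 times in MUCP1-FLAG, a log2 difference of −0.11. The exact 2-sided permutation test gave p = 0.1 for each, also after Benjamini-Hochberg adjustment over the 3 ratios, and 3 against 3 libraries can give no smaller value. MTHFD1 stands in 2 of the ratios, so they are not independent. The pair of ALDH1L2 and its cytosolic counterpart ALDH1L1 was not among the ratios. Their log2 fold changes were 0.63 and −0.12 (edgeR adjusted p 0.0258 and 0.423), which go the other way.

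**Figure D4:**
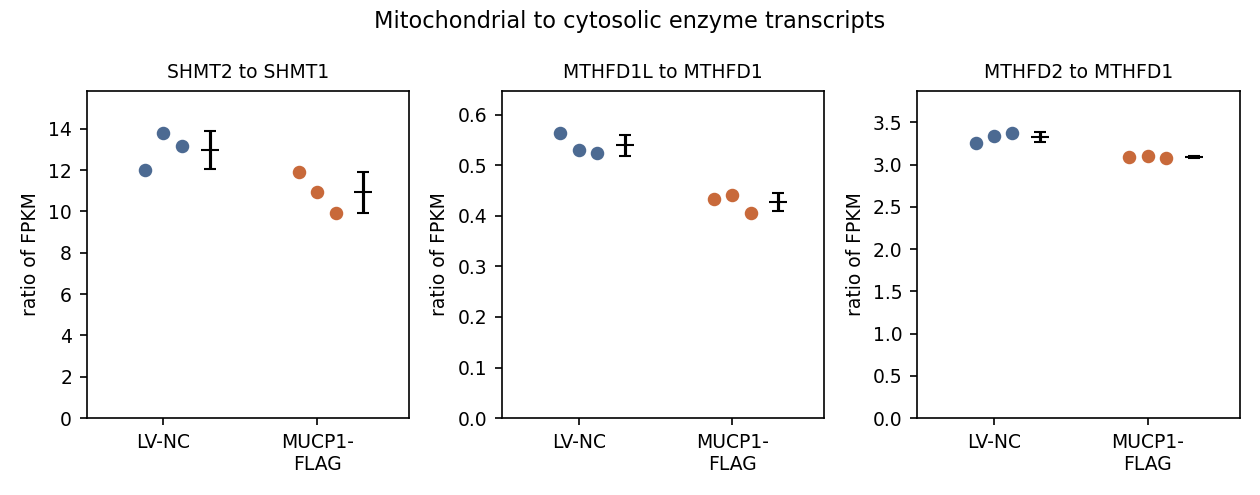
Ratio of deposited FPKM of a mitochondrial enzyme to its cytosolic counterpart in each library, on axes from 0, with mean and SD in black (n = 3 per group). The MTHFD1L to MTHFD1 ratio is 0.539 ± 0.0208 in LV-NC and 0.427 ± 0.0179 in MUCP1-FLAG, and the SHMT2 to SHMT1 ratios of LV-NC replicate 1 and MUCP1-FLAG replicate 1 lie side by side.

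GCSH, the lipoyl-carrying H protein of the glycine cleavage system, had 29.4, 28.9 and 29.8 CPM in LV-NC against 35.0, 34.9 and 36.4 CPM in MUCP1-FLAG. The groups were tight and apart. The rise was 1.21-fold, or 0.27 ± 0.07 on the log2 scale (adjusted p 0.00833 in edgeR). The call was lost without LV-NC replicate 2 (edgeR adjusted p 0.0513) and without MUCP1-FLAG replicate 3 (0.0570). The partners that make the system cleave glycine were nearly absent. GLDC, the glycine decarboxylase, had 5, 6 and 4 counts in LV-NC against 1, 1 and 3 in MUCP1-FLAG, and AMT, the aminomethyltransferase, had 0 to 10 counts per library, both under the filter for testing. DLD, the dehydrogenase shared with the large oxoacid complexes, was present at 114 ± 3.42 CPM in LV-NC against 123 ± 4.13 CPM in MUCP1-FLAG (0.10 ± 0.05 on the log2 scale, adjusted p 0.187 in edgeR, n = 3 per group).

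MAT2A, which makes S-adenosylmethionine from methionine, had 513, 516 and 508 CPM in LV-NC against 454, 465 and 461 CPM in MUCP1-FLAG. All MUCP1-FLAG libraries were lower. The log2 fold change was −0.16 ± 0.04 (adjusted p 0.0132 in edgeR). The call was held in 10 of 13 other settings, limma and DESeq2 among them, and lost in edgeR without LV-NC replicate 2 (adjusted p 0.0855), MUCP1-FLAG replicate 1 (0.0570) or MUCP1-FLAG replicate 3 (adjusted p 0.0647). MAT2B, the regulatory partner of the enzyme, had 65.0 ± 2.66 CPM in LV-NC against 63.4 ± 1.30 CPM in MUCP1-FLAG (edgeR adjusted p 0.719, n = 3 per group).

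Reads could be shared with other genes for some members. For overlaps on opposite strands this depends on the strand setting of the counting, which no source used here gives. In GENCODE 29, MTHFD2 has 7 named pseudogenes, GCSH has 5, and PSPH, SHMT1 and MTHFD1 have 1 each, none of them in the deposited table. GCSH (ENSG00000140905, chromosome 16, 81081938 to 81096425, − strand) also shares 430 and 442 exonic bases with a pair of other gene models on its own strand, AC092718.8 and AC092718.3, which had 0.313 to 1.96 CPM. MAT2A (ENSG00000168906, chromosome 2, 85539165 to 85545280, + strand) shares 558 exonic bases with GGCX on the opposite strand, which had 22.4 to 25.9 CPM. SHMT1 (ENSG00000176974, chromosome 17, 18327860 to 18363563, − strand) shares 196 with SMCR8, at 130 to 147 CPM. MTHFD1 (ENSG00000100714, chromosome 14, 64388031 to 64463457, + strand) shares 178 with ZBTB25, at 8.17 to 10.5 CPM. ALDH1L2 (ENSG00000136010, chromosome 12, 105019784 to 105084577, − strand) shares 145 with C12orf45 on the opposite strand, at 9.58 to 11.4 CPM. That neighbour was more abundant than ALDH1L2 itself, which had 2.25 to 4.44 CPM. The part of shared reads in the ALDH1L2 values was not tested. MTHFD1L (ENSG00000120254, chromosome 6, 150865549 to 151101887, + strand) shared exonic bases with no other gene of the table. MTHFD2 shares the most of any member, 1324 exonic bases or 27.2% of its exons, with SLC4A5 on the opposite strand, which had 0.185 to 0.628 CPM, and 295 with AC006030.1, at 0 to 0.348 CPM. SHMT2 shares 33 with NDUFA4L2, at 1.33 to 2.13 CPM. Coordinates are of GRCh38.

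Around these enzymes, 53 other genes of serine, glycine, folate and methionine metabolism were listed by role, of which 43 were tested. Among the 43, 4 rose and 3 fell, and their median log2 fold change was 0.02. The share called, 16.3%, was near the 16.1% of all tested genes. The 3 lower genes became 1 without MUCP1-FLAG replicate 1 or without MUCP1-FLAG replicate 3. TYMS, thymidylate synthase, had 180, 176 and 169 CPM in LV-NC against 282, 267 and 263 CPM in MUCP1-FLAG (0.63 ± 0.05 on the log2 scale, adjusted p 4.97e-09 in edgeR). GGH, which trims the glutamate tail of folates, rose by 0.26 ± 0.06 log2 units (adjusted p 0.00256 in edgeR), and both TYMS and GGH were called in all 13 other settings. SFXN3, a mitochondrial serine carrier of the sideroflexin family, rose by 0.21 ± 0.07 (edgeR adjusted p 0.0331), a call held in 6 of 13 settings and lost without replicate 2 or replicate 3 of either group, as well as in DESeq2 and limma.

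Of the 3 lower pathway genes, DMGDH, the mitochondrial dimethylglycine dehydrogenase, fell from 3.82 ± 0.506 to 1.96 ± 0.0790 CPM (−0.96 ± 0.20 on the log2 scale, adjusted p 0.00186 in edgeR, n = 3 per group) and was called in all 13 other settings. AHCYL2, a homologue of S-adenosylhomocysteine hydrolase, had −0.24 ± 0.07 (edgeR adjusted p 0.0190), lost without LV-NC replicate 1, MUCP1-FLAG replicate 1 or MUCP1-FLAG replicate 3. SDSL, a serine dehydratase-like enzyme, had −0.36 ± 0.11 (edgeR adjusted p 0.0282) with overlapping groups, a call lost in DESeq2, in limma and when LV-NC replicate 2, MUCP1-FLAG replicate 1 or MUCP1-FLAG replicate 3 was left out. Methionine synthase, MTR, had 43.9 ± 3.90 CPM in LV-NC against 42.9 ± 2.16 CPM in MUCP1-FLAG (edgeR adjusted p 0.798, n = 3 per group).

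The transcription factor ATF4, a known driver of PHGDH, PSPH, SHMT2, MTHFD2 and ALDH1L2, was itself higher. Of these enzymes only ALDH1L2 was called. Among the 7 enzymes with a promoter window, MTHFD1L alone held a C/EBP-ATF element, and it was lower, at −0.17 on the log2 scale. Its call was lost in 8 of 13 other settings. PSPH, SHMT2 and ALDH1L2 had no window to search. The part of ATF4 in these values was not tested. ATF4 had 438, 465 and 439 CPM in LV-NC against 513, 541 and 508 CPM in MUCP1-FLAG (0.22 ± 0.04 on the log2 scale, adjusted p 0.00176 in edgeR), with no overlap and a call in all 13 other settings. Of 28 genes listed as the factor and its programme 27 were tested, 6 rose and 1 fell, with a median log2 fold change of 0.02 against −0.0042 for all tested genes. The share called was 25.9%, beside 16.1% of all tested genes, and 8.35% of all tested genes were higher. Besides ATF4 the higher ones were NUPR1, a stress-induced nuclear protein, at 0.85 ± 0.21, the secreted glycoprotein STC2 at 0.24 ± 0.05, the lipoprotein receptor VLDLR at 0.33 ± 0.09, DDIT4, an inhibitor of mTORC1 signalling, at 0.22 ± 0.07, and the amino acid transporter SLC7A5 at 0.17 ± 0.05 on the log2 scale (edgeR adjusted p 0.00830, 0.00495, 0.0163, 0.0261 and 0.0141). Among fits that left out 1 library, STC2 was called in all 6, and NUPR1 in all but the one without MUCP1-FLAG replicate 2. VLDLR was not called when LV-NC replicate 1 or MUCP1-FLAG replicate 2 or 3 was left out, DDIT4 when LV-NC replicate 3 or MUCP1-FLAG replicate 2 or 3 was, and SLC7A5 when LV-NC replicate 2 or MUCP1-FLAG replicate 3 was. By limma on FPKM, STC2, DDIT4 and SLC7A5 were not called. ASNS, asparagine synthetase, had −0.04 ± 0.04, TRIB3 0.05 ± 0.05, DDIT3 0.05 ± 0.06 and CHAC1 0.03 ± 0.08 on the log2 scale (edgeR adjusted p 0.634, 0.580, 0.606 and 0.864). The called genes with the smallest adjusted p were PPP1R15A, a phosphatase subunit of the stress response, at −0.33 ± 0.05 (edgeR adjusted p 3.30e-05), and ATF4. Without MUCP1-FLAG replicate 2 or without MUCP1-FLAG replicate 3 the number of higher genes in this list was 3, and without LV-NC replicate 1 or LV-NC replicate 3 the number of lower ones was 2 and 3.

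For each called enzyme, the most alike transcripts were those with the smallest root mean square difference between log2 CPM profiles centred over the 6 libraries, among tested genes of at least 10 CPM. For SHMT1 these were RTEL1 (difference 0.013 log2 units) and IGFBP2 (0.029), and for MTHFD1 they were WWC1 (0.0087) and the mitochondrial aspartate-glutamate carrier SLC25A13 (0.013). MTHFD1L was most like IMPDH2 (0.016), an enzyme of guanine nucleotide synthesis, and RHBDD1 (0.017). GCSH was most like AXIN2 (0.015) and NCAPD3 (0.022), and MAT2A most like BAG5 (0.0087) and SMCR8 (0.016), the antisense neighbour of SHMT1. ALDH1L2 had no close match among the genes compared, with CKMT2 at 0.081 and SH2D5 at 0.083. It lay under the limit of 10 CPM itself, so genes at its own level were not compared. These distances follow the group difference as well as the spread between libraries, and describe likeness in 6 libraries only.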

How the data were processed

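mRNA of SW480 cells was sequenced in 3 LV-NC and 3 MUCP1-FLAG libraries, and groups were taken from the sample titles. The authors deposited 1 table with whole-number counts and FPKM per gene and library, the mean FPKM of each group, a log2 fold change, a p-value and an adjusted p-value. Per the submitters' processing notes, fastp, HISAT2, featureCounts, DESeq2 and GRCh38 were used, with no version or role given. The deposited log2 fold change equals the log2 ratio of these means, floored at 0.001, and no source used here gives the test behind the deposited p-value. Neither the strand setting nor the length behind FPKM is stated.

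Counts were tested with edgeR 4.0.16 (R 4.3.3) using glmQLFit (robust) and glmQLFTest, TMM scaling and filterByExpr at a minimum count of 10, which left 12920 genes. The common biological coefficient of variation was 0.0521. Standard errors were derived from fold changes and F statistics, intervals are 95% and the threshold was an adjusted p of 0.05 over all tested genes. FPKM was compared between genes, as ratios, by exact permutation (scipy 1.17.1). The script was tested on simulated data. Alternatives were RLE scaling, DESeq2 1.42.0, no low-count filter, at least 1 CPM in all 6 libraries, limma 3.58.1 on log2(FPKM + 1) and log2(FPKM + 0.1), the replicate number as a block, and leaving out each library. The members, lists, alternatives and naming rule were chosen with earlier results of these data known. All members were named. Of the pathway list PSAT1, GLDC, AMT, DLD, MTHFD2L, MTR and MAT2B were named by role, with the called genes, and some genes of this list are not reported here. Of the ATF4 list ATF4, ASNS, TRIB3, DDIT3 and CHAC1 were named, with the 2 called genes of smallest adjusted p, and lastly the 2 transcripts most like each called member. ALDH1L1, the marker genes and the other called genes of the ATF4 list were named after their values were seen. Positions and exon overlaps are from GENCODE 29.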

Additional observations from a re-analysis of the deposited data

How the results depend on the processing

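With limma on log2(FPKM + 1) 514 genes were higher and 544 lower of all tested, and on log2(FPKM + 0.1) 516 and 549, against 1079 and 996 in edgeR. On either FPKM scale 2 of the one-carbon enzymes were higher and 1 lower, and 3 genes of the ATF4 list were higher. DESeq2 called 1 enzyme lower. Without a low-count filter 2 genes of the ATF4 list were lower. When 1 library was left out, all genes higher numbered 639 to 1323 and lower 624 to 1213 (671 higher when LV-NC replicate 2 was left out, 639 higher and 624 lower when MUCP1-FLAG replicate 3 was), the enzymes higher 2 to 3 and lower 0 to 2 in edgeR, the other pathway genes lower 1 to 3, and the ATF4 list higher 3 to 6 and lower 1 to 3. The higher count of the other pathway genes stayed between 3 and 5 in all 13 settings. Fits with 1 library fewer have fewer samples, and the cause of the other differences was not tested.

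PHGDH, not called in any setting, had log2 fold changes of −0.0079 on both FPKM scales and of −0.038 to 0.056 with 1 library left out, and PSPH had −0.0028 on both and −0.013 to 0.050. The 6 called enzymes kept their direction in all 13 settings. Between compartments, the log2 ratio differences kept their sign in all 8 alternatives each, where the smallest possible exact permutation p is 0.1 or 0.2.

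The labels number the replicates 1 to 3 in both groups. Deviations from the group means correlated at 0.0024 to 0.050 between same-numbered libraries, under 0.1, so the numbers were not read as pairs, and LV-NC replicate 3 did not correlate best with its own number. With the replicate number as a block 1005 genes were higher and 954 lower, 4 enzymes were higher and 1 lower, and MTHFD1L had an edgeR adjusted p of 0.0529. Depth limits ALDH1L2 most, with 43 to 102 counts per library.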
